A study of Mus musculus with 14 samples.

Results

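The T-box genes encode transcription factors that share a DNA-binding domain, the T-box, and 10 of them were followed here in basal epidermal cells of the mouse: Tbx1, Tbx15, Tbx18, Tbx20, Tbx2, Tbx3, Tbx4, Tbx5, Eomes and Tbr1. A deposited peak was assigned to a gene where the gene name field of the peak, split at slashes, held its symbol. That rule took 103 of 26186 peaks in 6 peak lists, for 10 of 21631 protein-coding genes. The 10 genes were chosen with earlier results of these lists known. The study asked about the role of Polycomb repressive complex 1 (PRC1) in skin epithelium. Basal cells came from the back skin of newborn mice (postnatal day 0) of the genotype Krt14-RFP; Krt10-H2B-GFP, and were sorted as Sca1-positive, Krt14-RFP high and Krt10-H2B-GFP negative. The reporters are named for keratins, Krt14 of the basal layer and Krt10 of the layers above it, and every sample carried both. Sequencing of immunoprecipitated chromatin (ChIP-seq) used 6000000 cells for Ring1b and 400000 cells each for H2AK119ub and H3K27me3, in 2 replicates per antibody. Of the 14 samples in the series, the 8 for H3K27ac, H3K4me1, H3K4me3 and input chromatin were not analysed here.

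Ring1b is a ubiquitin ligase subunit of PRC1, which places ubiquitin on a lysine of histone H2A (H2AK119ub). H3K27me3 is the methyl mark placed on histone H3 by Polycomb repressive complex 2. Both complexes are known for holding genes of other tissues silent in a cell, often at promoters rich in CpG dinucleotides. T-box factors direct the formation of mesoderm, heart, limbs, pharynx and parts of the brain, and several of them are classical targets of Polycomb repression outside those tissues.

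The lists give each peak's position, its ChIP reads and input reads, its height in reads, a p-value and a location class. Signal is given as the ratio of ChIP reads to input reads, summed over all peaks that name a gene in a list. It was not scaled for library size, so ratios are compared within an antibody only. Means and SDs over replicates therefore also hold any difference in library size between the 2 lists. Paired values below are replicate 1 and then replicate 2, and coordinates are mm10 as deposited. The ChIP reads inside all peaks of a list ran from 444944 in H2AK119ub replicate 1 to 5212387 in H3K27me3 replicate 1. Intervals are exact 95% binomial intervals and cover counting error only. With 2 replicates a side the smallest two-sided exact permutation p is 0.333, so members are compared by whether their replicate values overlap. The labels do not say whether replicates came from separate animals. The lists hold no measure of expression. Of 5 basal keratinocyte markers, 4 (Krt5, Krt14, Trp63 and Itga6) were named in 0 of the 6 lists. Atoh1, Sox2 and Isl1, 3 of 4 Merkel cell markers, were named in all 6, as was Pdgfra, 1 of 3 fibroblast markers. Also in no list were 2 of 4 suprabasal, 3 of 4 melanocyte, 2 of 3 Langerhans and T cell and 2 of 2 endothelial markers. Over all protein-coding genes, 70.1% were named in no list and 3.99% in all 6. A peak list cannot tell apart a mark present in a few cells from a weak mark in all of them, and the part of other cell types in the results was not tested.

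Promoter sequence was taken from RefSeq (GRCm38.p6, the assembly behind mm10) as windows of 300 bases, from 250 bases before a start site to 50 after it. The table held windows for 6 of the 10 members, with 2 for Tbx1 and 1 each for Tbx18, Tbx20, Tbx4, Eomes and Tbr1, and for all 7 other T-box genes. The windows of 4 genes are printed in lower case, 5′ to 3′ on the strand of the gene, with each CpG in capitals. They show a member with the most CpG (Tbx20, chr9:24774254-24774553, minus strand), as many as in a Tbx1 window, and the member with the fewest (Tbr1, chr2:61804203-61804502, plus strand) under peaks of all 6 lists. Beside them stand a T-box gene with Ring1b and neither mark (Mga, chr2:119896978-119897277, plus strand) and one named in no list (Tbx19, chr1:165160724-165161023, minus strand).
Tbx20: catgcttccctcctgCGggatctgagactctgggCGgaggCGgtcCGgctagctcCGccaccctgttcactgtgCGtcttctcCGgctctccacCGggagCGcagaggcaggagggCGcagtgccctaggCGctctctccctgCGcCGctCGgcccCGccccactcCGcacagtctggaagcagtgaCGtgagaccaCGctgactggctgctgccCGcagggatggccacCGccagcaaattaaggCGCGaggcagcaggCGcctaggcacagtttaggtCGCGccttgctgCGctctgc
Tbr1: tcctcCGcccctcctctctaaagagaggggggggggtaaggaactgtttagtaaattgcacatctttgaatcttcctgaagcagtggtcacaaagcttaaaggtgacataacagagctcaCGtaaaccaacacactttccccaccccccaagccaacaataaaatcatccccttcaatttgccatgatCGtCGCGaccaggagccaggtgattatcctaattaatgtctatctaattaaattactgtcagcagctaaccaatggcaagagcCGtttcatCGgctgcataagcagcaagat
Mga: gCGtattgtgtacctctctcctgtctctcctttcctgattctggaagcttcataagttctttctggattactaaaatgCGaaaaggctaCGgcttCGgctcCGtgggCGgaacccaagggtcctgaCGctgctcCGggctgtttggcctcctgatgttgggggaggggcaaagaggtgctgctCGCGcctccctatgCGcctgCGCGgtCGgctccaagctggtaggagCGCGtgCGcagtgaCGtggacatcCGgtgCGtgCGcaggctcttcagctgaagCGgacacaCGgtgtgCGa
Tbx19: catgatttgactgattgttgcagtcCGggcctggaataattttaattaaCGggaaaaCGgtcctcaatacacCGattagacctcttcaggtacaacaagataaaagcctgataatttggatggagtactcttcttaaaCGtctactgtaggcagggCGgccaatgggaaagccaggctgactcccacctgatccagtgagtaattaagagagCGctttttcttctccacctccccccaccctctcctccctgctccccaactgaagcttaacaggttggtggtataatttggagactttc

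The T-box windows under peaks of 5 or 6 lists held 7 to 26 CpG and those without a peak in any list 1 to 7, so the ranges met at 7. The Tbx20 window held 26 CpG, the Tbx1 windows 26 and 16, the Tbx18 window 15, the Eomes window 10 and the Tbr1 window 7. All 6 of these windows lay whole inside peaks of all 6 lists. The Tbr1 window, which lies inside the gene span, had as many CpG as those of Tbx19 and Tbx6, each with 7 and no peak in any list. Without a peak were also the Tbx10 window with 4 CpG and 1 of 3 Tbx22 windows with 1. The other Tbx22 windows, with 2 and 1 CpG, were reached by H3K27me3 peaks in both replicates. Of the windows that some lists reached, Tbx21 held 21 CpG (5 lists), T 17 (3 lists) and Mga 24 (2 lists). The Tbx4 window, with 8 CpG, also lies inside its gene span and was reached by peaks in 5 of 6 lists, all but Ring1b replicate 2. Over all 32851 windows of the table the median was 7 CpG (interquartile range 3 to 20). Outside the family the median was 19 over 807 windows of protein-coding genes named in all 6 lists, and 9 over 14877 windows of genes named in none. The core of the sequence that T-box factors bind, GGTGTGA, searched on both strands, was in 0 of the 16 T-box windows and in 1307 of all 32851 (3.98%).

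**Figure D1:**
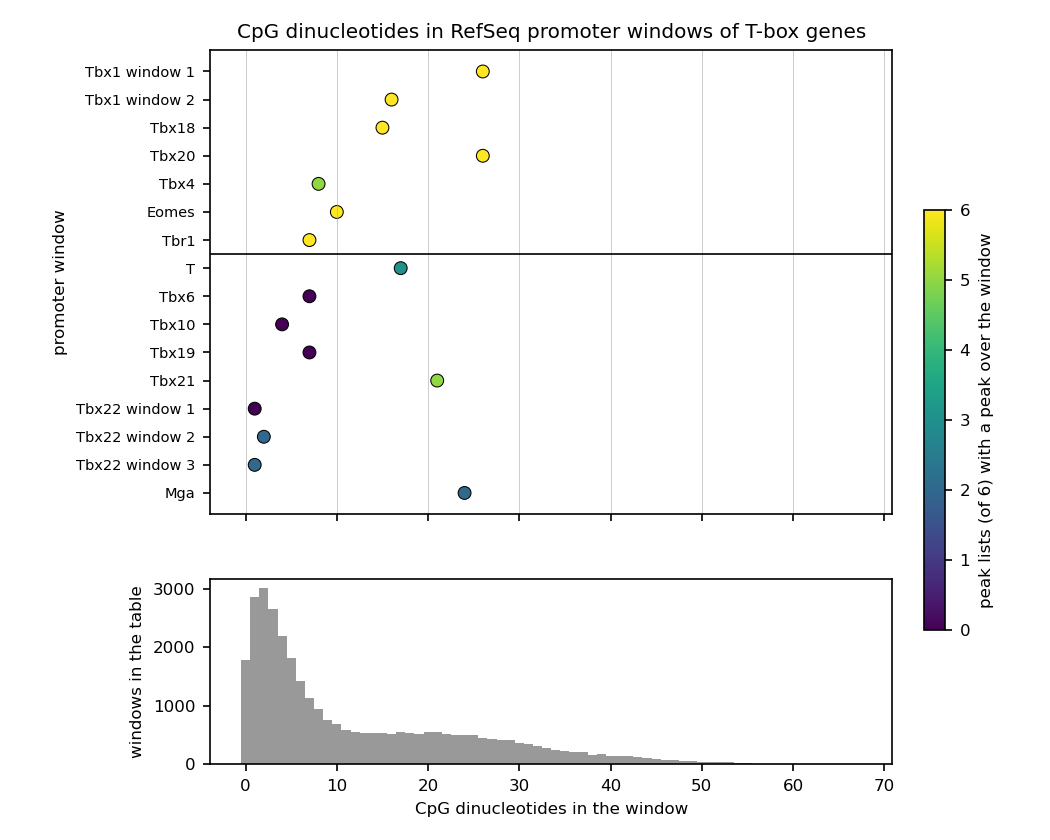
Upper panel: number of CpG dinucleotides (x axis) in each RefSeq promoter window of 300 bases of the T-box genes, members above the line and other T-box genes below it, coloured by how many of the 6 peak lists have a peak over the window. Lower panel: number of windows in the whole table at each CpG number. The windows of Tbr1 and Tbx19 hold 7 CpG each, with peaks in 6 lists and in 0 lists.

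All 10 members were named in both Ring1b lists, where 10.2% of 21631 protein-coding genes were. They were also named in both H2AK119ub lists (10 of 10, background 8.68%), in both H3K27me3 lists (10 of 10, background 10.0%) and so in all 6 lists (10 of 10, background 3.99%). Since the members were picked with these lists known, their counts describe the choice and support nothing. Counted by promoter peaks alone, 10 of 10 members were in both lists of Ring1b (background 9.17%), of H2AK119ub (6.91%) and of H3K27me3 (8.87%), and in all 6 lists (3.42%). Of the 103 peaks, 68 were promoter peaks, 25 were distal, 10 lay in a gene body and 0 were intergenic. Over all 26186 peaks, 57.7% were promoter peaks, 13.6% distal, 17.1% in a gene body and 11.6% intergenic. Together the members took 2.83% and 3.01% of the ChIP reads in Ring1b peaks, 1.90% and 1.40% for H2AK119ub, and 1.28% and 1.75% for H3K27me3.

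Among the other 7 T-box genes the lists differed by gene. Tbx21 was named in all 6 lists, T in 5, Tbx22 and Mga in 2 each, and Tbx6, Tbx10 and Tbx19 in 0. Over all 17 genes of the family, 11 were named in all 6 lists and 3 in none, where 70.1% of protein-coding genes were in none.

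**Figure D2:**
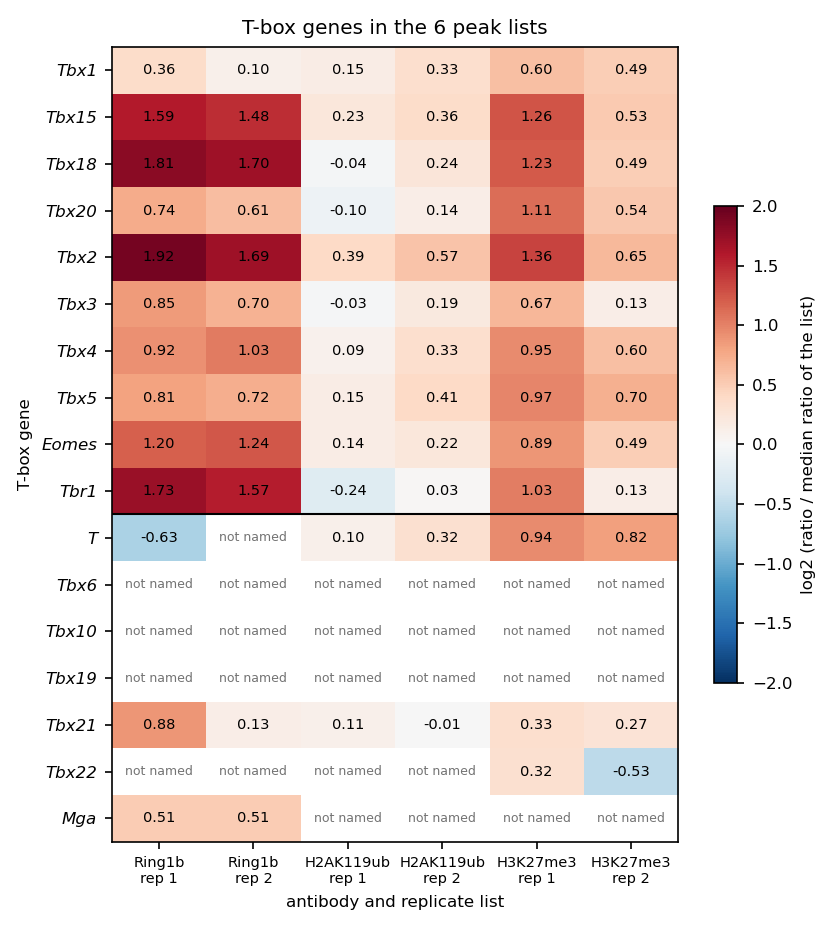
Each cell gives, for a T-box gene (rows) in a peak list (columns, by antibody and replicate), log2 of its ChIP-to-input ratio over the median ratio of all peaks of that list. Members stand above the line and other T-box genes below it, and lists that do not name a gene are left white. The members are filled in all 6 columns, and Tbx6, Tbx10 and Tbx19 in 0.

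Within the Tbx1 subfamily, Tbx18 and Tbx15 carried the strongest Ring1b signal and Tbx1 itself the weakest of all members. Tbx1 acts in the pharyngeal arches that build the face, heart outflow tract and thymus. Its span (chr16:18580979-18590671, minus strand) held a gene body peak of 3042 and 3292 bp and a promoter peak of 6770 and 6467 bp for Ring1b. Together they had 731 and 583 ChIP reads over 237 and 237 input reads, ratios of 3.08 and 2.46, close to the list medians of 2.40 and 2.29. H2AK119ub at Tbx1 gave 717 and 1381 ChIP reads over 345 and 545 input reads, ratios of 2.08 and 2.53. H3K27me3 covered the whole span in both replicates, with 2781 and 2054 ChIP reads over 220 and 312 input reads. The H3K27me3 ratios were 12.6 and 6.58. Distal H2AK119ub peaks that name Tbx1 were weak, with a deposited p of 0.109 in replicate 1 and of 0.0674 and 0.00955 in replicate 2.

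Tbx15, a gene of skeletal growth and of the dorsal and ventral coat pattern in mice, had a wide Ring1b domain. It was a single peak of 30929 bp in replicate 1 (chr3:99233864-99264792), rank 21 of 4452 by length. In replicate 2 the same stretch was split into a distal peak of 10079 bp and a promoter peak of 18540 bp by a gap of 2351 bp. Ring1b had 5344 and 4384 ChIP reads over 739 and 688 input reads, ratios of 7.23 and 6.37. Both replicates lay far above the list medians. H2AK119ub had 1434 and 2190 ChIP reads over 657 and 844 input reads (ratios 2.18 and 2.59), and its distal peak of 4923 bp in replicate 1 reached 3.02, above the promoter peak at 2.04. H3K27me3 had 10034 and 6175 ChIP reads over 505 and 914 input reads, ratios of 19.9 and 6.76. Tbx15 spans 113913 bp, and peaks covered 19.3% to 28.5% of it, all at its lower-coordinate end.

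Tbx18 marks precursors of the hair follicle dermal papilla and builds the ureter wall. A single Ring1b peak of 19813 and 17784 bp lay over its promoter (chr9:87721144-87740956 in replicate 1), with 4404 and 3502 ChIP reads over 525 and 472 input reads. The ratios of 8.39 and 7.42 ranked 38 of 4452 and 34 of 3058. H2AK119ub had 890 and 1303 ChIP reads over 491 and 549 input reads, and its ratio of 1.81 in replicate 1 was just below the list median of 1.87, while 2.37 in replicate 2 was above 2.02. Strong Ring1b signal therefore stood beside middling H2AK119ub signal at this gene. H3K27me3 had 5824 and 3952 ChIP reads over 298 and 602 input reads, ratios of 19.5 and 6.56.

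Tbx20, a heart gene, had a Ring1b peak of 16712 and 13453 bp (chr9:24766536-24783247 in replicate 1) over the promoter printed above. It held 1555 and 1149 ChIP reads over 389 and 329 input reads, ratios of 4.00 and 3.49. H2AK119ub was split into a pair of promoter peaks in both replicates, with 568 and 804 ChIP reads over 326 and 363 input reads (ratios 1.74 and 2.21). The replicate 1 ratio was below the list median of 1.87. H3K27me3 had 4727 and 3103 ChIP reads over 263 and 455 input reads, ratios of 18.0 and 6.82, and its height of 141 in replicate 1 ranked 53 of 6040. Its Ring1b height in the same replicate, 41, ranked 417 of 4452.

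Within the Tbx2 subfamily the genes sit in linked pairs, Tbx2 with Tbx4 on chromosome 11 and Tbx3 with Tbx5 on chromosome 5. Tbx2 and Tbx3 are mainly repressors, of heart, limb and mammary development. Tbx2 had the highest mean ratio of the members for all 3 antibodies. In replicate 2, however, Tbx18 was higher for Ring1b (7.42) and Tbx5 for H3K27me3 (7.63). The Ring1b peak of Tbx2 shared its name field with the long non-coding RNA gene 2610027K06Rik. It was 16456 and 16182 bp long, with 3622 and 2926 ChIP reads and ratios of 9.06 and 7.39. H2AK119ub had 999 and 1591 ChIP reads over 408 and 532 input reads, ratios of 2.45 and 2.99, and its height of 30 in replicate 1 ranked 6 of 3800. H3K27me3 had 5446 and 3700 ChIP reads over 256 and 502 input reads, ratios of 21.3 and 7.37. Reads of these peaks cannot be divided between Tbx2 and 2610027K06Rik.

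Tbx3, which starts the mammary placodes in mouse, had the longest Ring1b peak of any member, 31449 bp in replicate 1 (chr5:119657114-119688562, rank 20 of 4452). In replicate 2 a peak of 19583 bp and one of 2066 bp named Tbx3, and a further peak over the end of its span (chr5:119682879-119688738) named Tbx3os2, a long non-coding RNA gene. Ring1b over the peaks that name Tbx3 had 2845 and 1623 ChIP reads over 656 and 436 input reads, ratios of 4.34 and 3.72. H2AK119ub fell into 6 peaks in replicate 1 and 2 in replicate 2, with 760 and 1838 ChIP reads over 415 and 799 input reads (ratios 1.83 and 2.30). Its ratio was higher in the parts below the gene span. In replicate 2 the ratio was 2.99 (95% interval 2.61 to 3.43) over the 16513 bp below the lower end of the span and 1.92 (1.72 to 2.14) over the 20807 bp above it. These ratios came from 852 and 986 ChIP reads over 285 and 514 input reads. The part of the input in the difference was not tested. Replicate 1 showed the same order, with 2.22 to 2.91 in the 3 peaks below and 1.21 to 1.71 in the 3 above, though several of these intervals overlap. H3K27me3 had 6990 and 4643 ChIP reads over 529 and 904 input reads, ratios of 13.2 and 5.14. Its promoter peak below the span reached 15.9 and 6.92, above the promoter peak over the span at 12.7 and 4.26. A further distal peak below both was weaker, at 8.17 and 3.12. In replicate 2 the promoter peaks below and over the span had 2345 and 2005 ChIP reads over 339 and 471 input reads. The part of the input in the H3K27me3 ratios was not tested either. The upper peak is named for Tbx3 and Tbx3os2 together in both H3K27me3 lists and in H2AK119ub replicate 2, so its reads cannot be divided between them.

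Tbx4 and Tbx5 are the genes of hindlimb and forelimb, and Tbx5 also acts in the heart. Tbx4 had a Ring1b peak of 15188 and 10051 bp (chr11:85883272-85898459 in replicate 1) with 1549 and 1114 ChIP reads over 341 and 238 input reads. Its ratios of 4.54 and 4.68 made it the 1 member whose Ring1b ratio was not higher in replicate 1. H2AK119ub had 634 and 1403 ChIP reads over 319 and 553 input reads, ratios of 1.99 and 2.54. H3K27me3 had 5881 and 3361 ChIP reads over 367 and 472 input reads, ratios of 16.0 and 7.12. The end of the Tbx4 span lay under another H3K27me3 peak in both replicates (chr11:85914454-85939047 in replicate 1), which the lists class as intergenic with no gene name.

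At Tbx5 the Ring1b signal fell into 2 blocks, a stronger promoter block and a weaker one at the lower-coordinate end of the span (chr5:119796514-119885220). The Ring1b promoter peak was 16832 and 12747 bp long, at ratios of 5.17 and 5.04. The lower block, classed as distal although it meets the lower end of the RefSeq span, held a Ring1b peak of 7351 and 5852 bp at 3.13 and 2.75 and one of 2963 and 3012 bp at 1.89 and 1.67. Between the blocks Ring1b was absent from the lists over 20174 and 21423 bp. All peaks that name Tbx5 together had 2297 and 1817 Ring1b ChIP reads over 545 and 481 input reads, ratios of 4.21 and 3.78. H2AK119ub had 1005 and 1992 ChIP reads over 484 and 746 input reads (ratios 2.08 and 2.67) and followed both blocks. In replicate 1 its promoter peak, at 2.14, was level with a lower-block peak of 7200 bp, at 2.11. In replicate 2 the promoter peak had 2.94 and a lower-block peak of 16236 bp had 2.49. H3K27me3 bridged the blocks in replicate 1 in a single peak of 59790 bp (chr5:119791243-119851032), rank 14 of 6040 by length. In replicate 2 a gap of 13172 bp parted them. Its totals were 12481 and 6717 ChIP reads over 765 and 880 input reads, ratios of 16.3 and 7.63.

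In the Tbr1 subfamily both members carried Ring1b well above the list medians. Eomes acts in trophoblast, early mesoderm and endoderm, killer lymphocytes and progenitors of cortical neurons. Its Ring1b peaks held 2135 and 1168 ChIP reads over 388 and 216 input reads, and the ratios of 5.50 and 5.41 were the closest of any member between replicates. The main peak was 15396 bp in replicate 1 (chr9:118473943-118489338) and 7900 bp in replicate 2, where a further peak over the end of the span (chr9:118484439-118489834) named the neighbouring gene Golga4 instead. A small distal Ring1b peak of 1378 and 1177 bp lay below the gene in both replicates, at ratios of 2.93 and 2.80. H2AK119ub at Eomes had 536 and 1153 ChIP reads over 260 and 491 input reads, ratios of 2.06 and 2.35. H3K27me3 had 5991 and 3719 ChIP reads over 390 and 566 input reads, ratios of 15.4 and 6.57.

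Tbr1, a factor of deep-layer cortical neurons, had the tallest Ring1b peak of the members. It reached 181 and 187 reads in height, rank 21 of 4452 and 10 of 3058, over 27271 and 27078 bp (chr2:61801283-61828553 in replicate 1). Ring1b had 6455 and 5392 ChIP reads over 812 and 793 input reads, ratios of 7.95 and 6.80. Despite that, Tbr1 had the lowest mean H2AK119ub ratio of the members, 1.58 and 2.06, from 924 and 1528 ChIP reads over 584 and 742 input reads. Input was denser here than at the other members, at 31.7 and 30.0 reads per kb in the H2AK119ub lists, where Tbx18, the next densest, had 24.8 and 25.9. The H2AK119ub ChIP reads per kb, 50.2 and 61.7, were inside the members' range of 40.9 to 59.9 and 49.2 to 70.7. The part of the input in the low ratio was not tested. H3K27me3 had 6435 and 4013 ChIP reads over 380 and 785 input reads, ratios of 16.9 and 5.11.

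Set in order of mean Ring1b ratio (± SD, n = 2), the members fell into steps by their replicate values. Tbx2 (8.22 ± 1.18), Tbx18 (7.90 ± 0.685), Tbr1 (7.37 ± 0.813) and Tbx15 (6.80 ± 0.608) each overlapped the next in their replicate values. Eomes stood below them without overlap at 5.45 ± 0.0673, and Tbx4 below Eomes at 4.61 ± 0.0977. Tbx3 (4.03 ± 0.434), Tbx5 (4.00 ± 0.309) and Tbx20 (3.74 ± 0.357) overlapped each other and lay below Tbx4. Tbx1, at 2.77 ± 0.442, lay below all other members in both replicates. By the counting intervals within each replicate, no step was complete in both. Tbx15 was not separate from Eomes in both, nor Eomes from Tbx4. Neither was Tbx4 from Tbx3, Tbx5 or Tbx20, nor Tbx20 from Tbx1. The intervals of Tbx2, Tbx18 and Tbr1 lay above those of Eomes and all members below it in both replicates. Restricted to promoter peaks, Tbx5 stood at 5.11 and Eomes at 5.73, which puts Tbx5 above Tbx4. The subfamilies were mixed in this order.

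The H2AK119ub ratios spanned less, with means from 1.82 ± 0.337 at Tbr1 to 2.72 ± 0.383 at Tbx2, and each member overlapped the next. Tbx2 lay above 5 members without overlap. The H3K27me3 means ran from 9.17 ± 5.71 at Tbx3 to 14.3 ± 9.83 at Tbx2, and with both replicates pooled the values of every member overlapped those of every other. Members of the same list share its ChIP and input libraries, so they were also set in order within each replicate. For H2AK119ub, Tbx2 was the highest and Tbr1 the lowest of the 10 in both replicates, and the interval of Tbx2 lay above those of Tbx18, Tbx20, Tbx3 and Tbr1 in both. For H3K27me3, Tbx2 had 21.3 (95% interval 18.8 to 24.2) and 7.37 (6.71 to 8.11), above Tbx3 with 13.2 (12.1 to 14.5) and 5.14 (4.78 to 5.52). The intervals of Tbx15, Tbx18, Tbx20 and Tbx5 also lay above that of Tbx3 in both replicates. No other pair of members was separate in the same order in both. The H3K27me3 intervals of Tbx1 and Tbr1 were separate in both replicates, but in opposite order. Tbr1 was above Tbx1 in replicate 1 (ratios 16.9 and 12.6) and below it in replicate 2 (5.11 and 6.58). Replicate 1 exceeded replicate 2 at 10 of 10 members for H3K27me3 and at 9 of 10 for Ring1b, and replicate 2 exceeded replicate 1 at 10 of 10 for H2AK119ub. Input density moved with the H3K27me3 difference, at 11.3 and 23.0 reads per kb over the members, while ChIP reads per kb were 189 and 149. Over all H3K27me3 peaks input was 11.7 and 22.2 reads per kb, and the other 4 lists had 22.0 to 24.0, so H3K27me3 replicate 1 stood apart from the rest. The H3K27me3 ratios of 12.6 to 21.3 all come from that list. Its input library is not named in the sources, and the part of the input in the replicate difference was not tested.

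**Figure D3:**
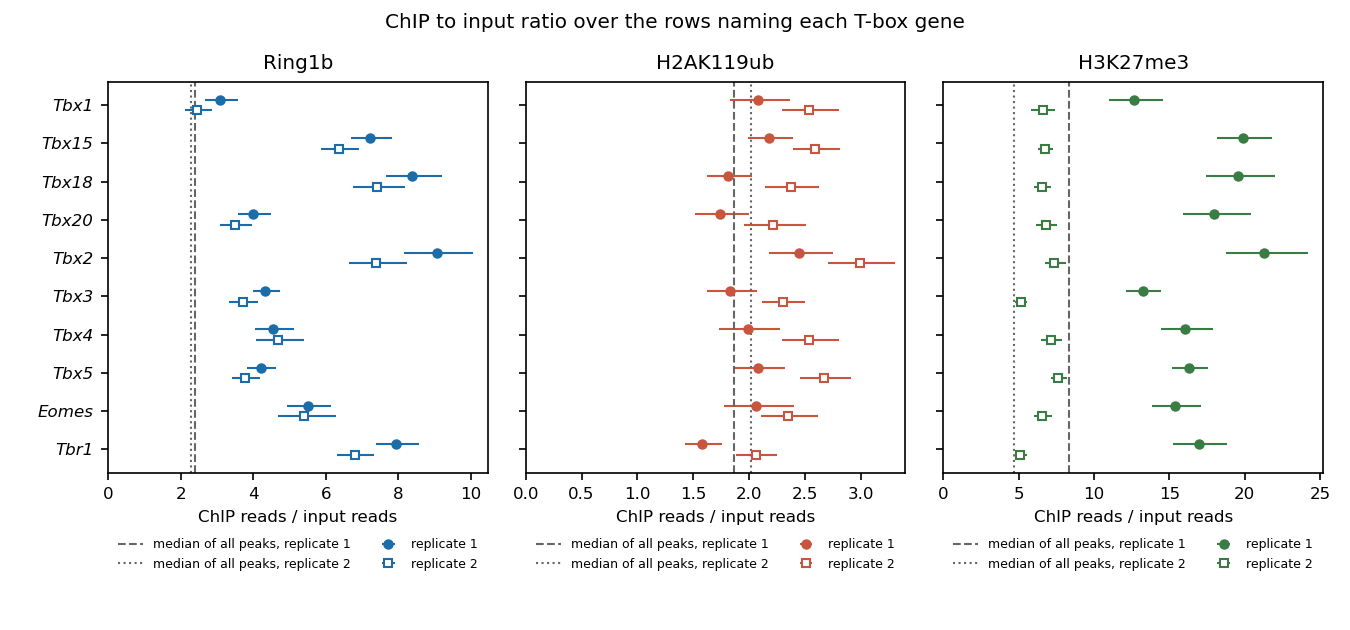
ChIP-to-input read ratio (x axis) of each member (y axis) for Ring1b, H2AK119ub and H3K27me3. Filled circles are replicate 1 and open squares replicate 2, bars are exact 95% binomial intervals, and vertical lines are the median ratio of all peaks in each replicate list. The members spread from 2.46 to 9.06 for Ring1b and from 1.58 to 2.99 for H2AK119ub.

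Against all peaks of the same list, the members' median Ring1b ratio was 5.02 and 5.04, set beside list medians of 2.40 and 2.29, and 10 of 10 members were above the list median in both replicates. On the log2 scale the difference of medians was 1.10 ± 0.0554 (SD, n = 2), but 0.59 once peaks whose deposited p exceeds 0.001 were left out. For H3K27me3 the members' median was 16.6 and 6.67, against 8.31 and 4.68, again with 10 of 10 above in both replicates and a log2 difference of 0.75 ± 0.347, or 0.69 with the same peaks left out. For H2AK119ub it was 2.02 and 2.45, against 1.87 and 2.02, with 6 of 10 members above the list median in replicate 1 and 10 of 10 in replicate 2. Its log2 difference was 0.20 ± 0.117, and 0.019 with the same peaks left out. The longest Ring1b peak of each member, 6770 to 31449 bp in replicate 1 and 6467 to 27078 bp in replicate 2, exceeded the list medians of 1368 and 1345.5 bp. A longest peak per gene set against a median over single peaks favours the members by construction. The longest peaks of other genes were not compared. Across the 10 members, which differ in length and input, Ring1b ratios of both replicates ran together (Pearson's r 0.978, Spearman's rho 0.976, n = 10), and so did those of H2AK119ub (0.941 and 0.867), but less so those of H3K27me3 (0.393 and 0.285). Between antibodies, r over the 10 members was 0.0729 and 0.0760 for Ring1b and H2AK119ub, 0.787 and -0.0388 for Ring1b and H3K27me3, and 0.220 and 0.740 for H2AK119ub and H3K27me3, so only the first was alike in both replicates.

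Ring1b lay almost wholly inside H3K27me3, which covered between 92.8% and 100% of the Ring1b length at every member in both replicates, and all of it at 8 of 10 in each. The lowest shares were at Tbx3, 95.5% and 92.8%. The shares and widths given here were taken over the members alone. Matching values over other genes were not computed, so none is shown to be a trait of T-box genes. H2AK119ub covered 50.8% to 100% of the Ring1b length in replicate 1 (median 82.9%) and 91.5% to 100% in replicate 2 (median 100%). The lowest share, at Eomes in replicate 1, was 73.7% with an H2AK119ub peak over its span counted that names Golga4 alone. All H2AK119ub length lay under H3K27me3 at 9 of 10 members in replicate 1 and at 4 of 10 in replicate 2, where the lowest share was 52.8% at Tbx1. All of it lay under Ring1b at 3 of 10 and 1 of 10 members. H3K27me3 was the widest mark at 10 of 10 members in replicate 1 and at 6 of 10 in replicate 2. In replicate 2, H2AK119ub was the widest at Tbx1, Tbx2 and Tbx4, and Ring1b at Tbr1, with 27078 bp beside 26135 bp of H3K27me3. H2AK119ub was wider than Ring1b at 3 of 10 members in replicate 1 and at 9 of 10 in replicate 2, so that order rests on the replicate. The shortest peak was 2003 and 2006 bp in the H3K27me3 lists, and 500 bp in the Ring1b and H2AK119ub lists. The part of peak calling and read depth in the widths was not tested. The median of H3K27me3 width over Ring1b width was 1.53 and 1.44. The value at Tbx5 was 2.43 and 1.87. At Eomes in replicate 2 it was 2.84 over the peaks that name the gene, and 1.78 with the Ring1b peak named for Golga4 counted.

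**Figure D4:**
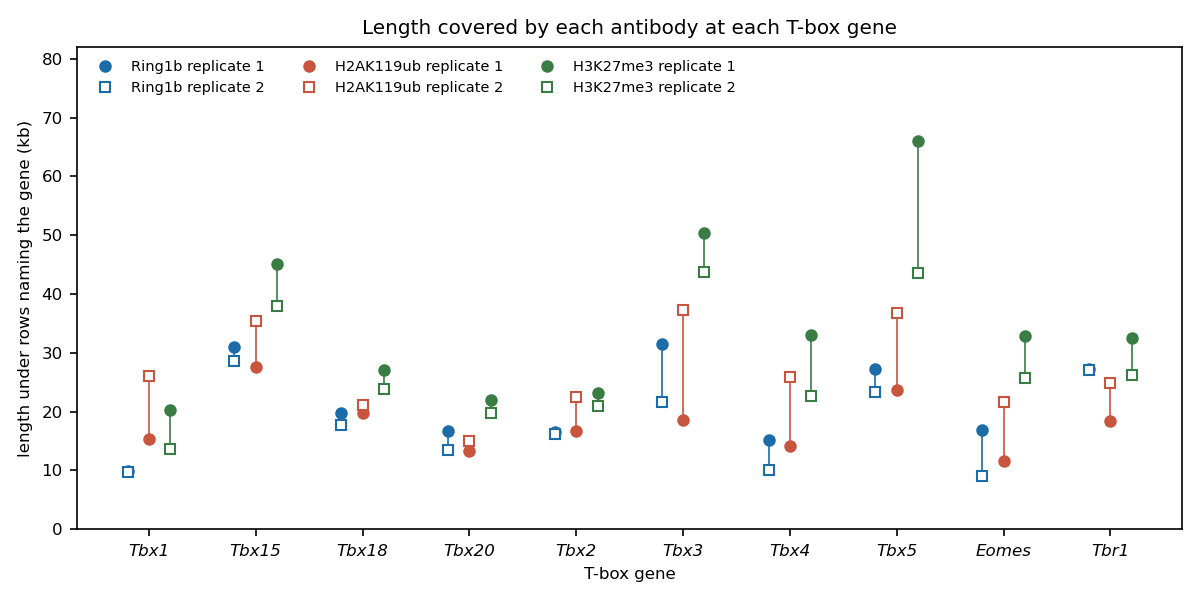
Length in kb under all peaks that name a member (y axis), by member (x axis), antibody (colour) and replicate (filled circle 1, open square 2, joined by a line). H3K27me3 is the longest at every member in replicate 1, and the Ring1b lengths of Tbr1, 27271 and 27078 bp, nearly coincide.

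Edges were compared between replicates for the replicate 1 peak with the most ChIP reads at each member and the replicate 2 peak of that member overlapping it most. In that pairing 9 of 20 Ring1b edges lay within 500 bp of each other (median distance 876.5 bp), as did 4 of 20 for H2AK119ub (2672.5 bp) and 3 of 20 for H3K27me3 (1852 bp). At Tbx2 the Ring1b edges differed by 29 and 303 bp, at Tbr1 by 265 and 458 bp, and at Tbx1 by 239 and 64 bp. The largest Ring1b distance, 12323 bp, was at the lower edge of Tbx15, where the peak was split in replicate 2.

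Some gaps inside the domains recurred in both replicates. Between peaks of a member 43 gaps were counted, from 999 to 22082 bp, and no list had peaks closer than 998 bp. At Tbx3, H2AK119ub and H3K27me3 were both interrupted across the lower end of the gene span (119670534), by 2231 and 1475 bp for H2AK119ub and by 1409 and 1552 bp for H3K27me3. Ring1b ran through that position in both replicates. At Tbx2 a gap in H2AK119ub of 999 and 1059 bp began 216 and 146 bp inside the lower end of the span, under a continuous Ring1b peak and a continuous H3K27me3 peak. At Tbx20 an H2AK119ub gap of 1154 and 1001 bp began 389 and 609 bp beyond the upper end of the span, which is the start side of this minus-strand gene, again with Ring1b and H3K27me3 continuous. Eomes had an H2AK119ub gap of 1658 and 1352 bp whose upper edge lay 3606 and 3837 bp below its span. Tbx1 showed a gap in Ring1b instead, of 1823 and 1438 bp inside the gene body, where both marks were continuous. The lists do not say whether such gaps had no reads or only too few for a peak.

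**Figure D5:**
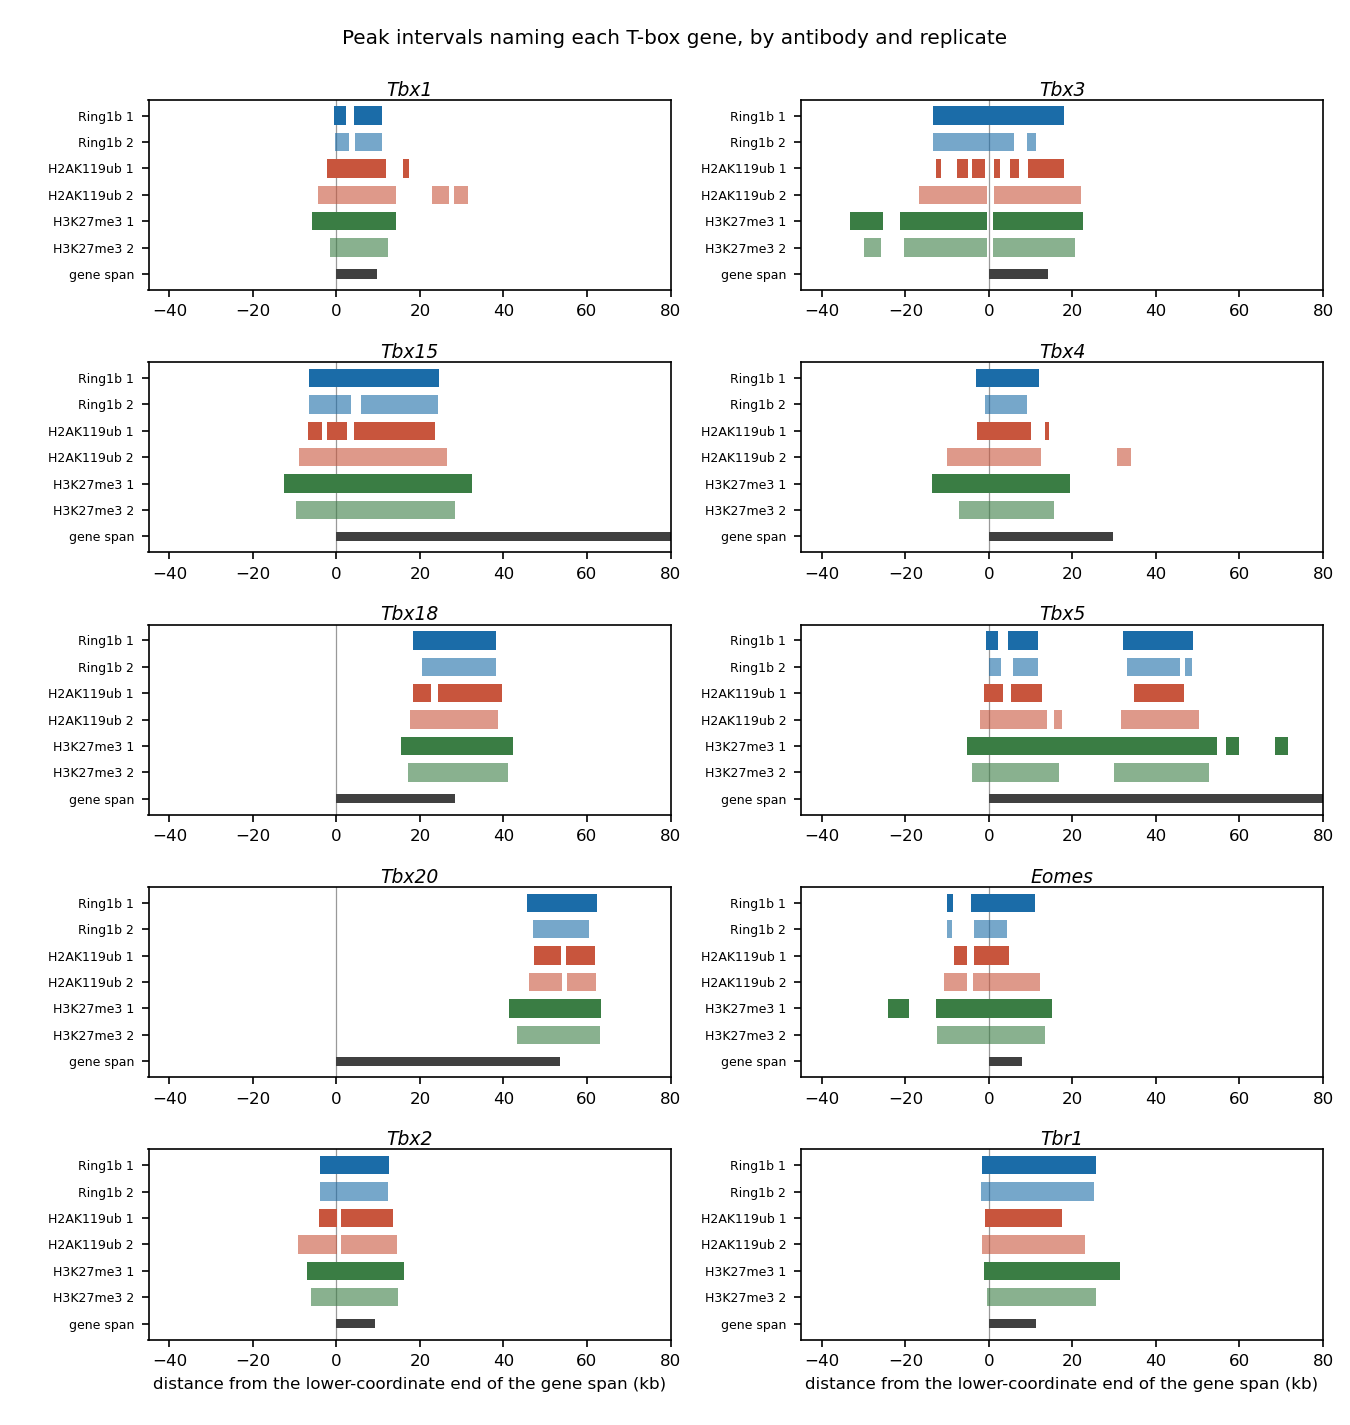
Peaks that name each member, as bars by antibody and replicate, with the RefSeq gene span in black. The x axis is distance in kb from the lower-coordinate end of the span, so Tbx1, Tbx18 and Tbx20, on the minus strand, start at the right end of their bar, and the spans of Tbx15 and Tbx5 run past the right edge. The recurrent gap at the zero line of Tbx3 appears in both marks and not in Ring1b.

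The linked pairs were marked as separate domains. Between the last peak naming Tbx2 and the first naming Tbx4 lay 23982 to 40677 bp over the 6 lists, with a single peak in between, in H2AK119ub replicate 2. Between Tbx3 and Tbx5 lay 98121 to 114682 bp, with 0 to 2 peaks in between. Both H3K27me3 lists held a distal Tbx3os2 peak there (ratios 12.4 and 5.71) and an unnamed intergenic one (13.3 and 4.36), and neither Ring1b list held a peak at either place. Beyond Tbx4 an intergenic region without a gene name (chr11:85923692-85928600 in Ring1b replicate 1) had a peak in all 6 lists, for H3K27me3 the same one that reached the end of the Tbx4 span. The Ring1b ratios of Tbx4, 4.54 and 4.68, were close to the 4.34 and 4.39 of that region.

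Of the other T-box genes, T, Tbx22 and Mga showed combinations that the members, chosen with these lists known, lacked. Tbx21 was named in all 6 lists, as the members were. Tbx21, the T-bet gene of type 1 helper T cells, had only short Ring1b peaks of 754 and 1525 bp with 62 and 45 ChIP reads over 14 and 18 input reads. Its ratios were 4.43 (95% interval 2.45 to 8.57) and 2.50 (1.42 to 4.59). In replicate 1 that interval overlapped those of all members. In replicate 2 it lay below those of Eomes, Tbx15, Tbr1, Tbx2 and Tbx18 and overlapped the others. H3K27me3 over all peaks that name Tbx21 reached 10.5 and 5.66, below 10 of 10 members in replicate 1 but above Tbx3 and Tbr1 in replicate 2. Its promoter peak alone had 16.7 (95% interval 13.0 to 21.7) and 6.03, inside the range of the members' totals. The distal and gene body peaks of replicate 1 had 9.76 and 4.98. T, the Brachyury gene of mesoderm and notochord, had both marks in both replicates (374 genes, 1.73%, had both marks with Ring1b in fewer than 2 lists). Its H3K27me3 ratios of 16.0 and 8.27, over 187 and 199 input reads, were within and above the members' ranges of 12.6 to 21.3 and 5.11 to 7.63. Ring1b named T only in a distal peak of replicate 1, at 1.55 with a deposited p of 0.416.

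Tbx22, an X-linked palate gene, had H3K27me3 alone (1.61% of protein-coding genes), at 10.4 and 3.25, over 62 and 60 input reads. Mga encodes a partner of Max that is itself a subunit of a variant PRC1 complex, and it had Ring1b in both replicates with neither mark (2.69% of protein-coding genes). Its ratios were 3.41 and 3.26, from 440 and 352 ChIP reads over 129 and 108 input reads in a distal and a promoter peak, and they lay above those of Tbx1 in both replicates. Tbx6 of paraxial mesoderm, Tbx10 and Tbx19 of the pituitary had no peak over their spans in any list. A gene named in no list had no peak there that passed the calling, and a signal below it was not detectable in these files.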

How the data were processed

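Build mm10 and the tools MACS2 2.1.0, SAMtools 0.1.19, Bowtie2 2.2.3, Bowtie 1.1.1 and Trim Galore 0.4.1 are listed, with no roles, in the submitters' processing notes. Per the file headers, each deposited peak has ChIP and input read counts by strand, a maximum height (a coverage signal) and a p-value. The read counts were whole numbers. Not given in the sources used here are the peak caller, the input library behind each list, its scaling, the test behind the p-value, library totals and whether coordinates count from 0. The lists were deposited per replicate, and 3 union lists served only as an alternative. Coordinates are printed as deposited and treated as closed intervals.

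Samples were grouped by title. Reads of both strands were added and summed over all peaks naming a gene, and the ratio of ChIP to input reads was taken with an exact Clopper-Pearson 95% interval. Such intervals cover counting error only, since reads without molecular identifiers are not independent molecules. No test was made, because with 2 replicates an exact permutation test cannot fall below p = 0.333. The background was 21631 protein-coding genes of the RefSeq table (GRCm38.p6), with the lists matched by name. Of 7264 names in the lists, 7074 are current symbols of that table, and 6307 of these, with 161 more by synonym, are protein-coding. The members, gene lists and alternatives were chosen with earlier results of these data known. All 10 members, the 7 other T-box genes, genes sharing or neighbouring their peaks within 100 kb, and the 5 genes with the most similar ratios were named. The interval, overlap and ratio steps were tested on simulated data. Python 3.11.15, pandas 2.3.3, NumPy 2.4.6, SciPy 1.17.1 and Matplotlib 3.10.9 were used.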

Additional observations from a re-analysis of the deposited data

How the results depend on the processing

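All 10 members were named in both lists of each antibody, and in all 6 lists, under each alternative that was run: promoter peaks only, a deposited p of at most 0.001, 1 list per antibody, the union lists, overlap with the gene span extended by 2000 bp in place of the name, and that overlap with at least 500 bp. The log2 difference between the members' median Ring1b ratio and that of all peaks, 1.10 as reported, was 1.21 with only the peak of most ChIP reads per member, 1.20 with promoter peaks, 1.18 with ChIP reads per kb and 0.59 with peaks of a deposited p of at most 0.001. By construction the last setting removes peaks of higher p from the lists, and the cause of the other shifts was not tested. For H2AK119ub the same p limit gave 0.019 in place of 0.20, and for H3K27me3 0.69 in place of 0.75. Leaving out each replicate in turn gave 1.06 to 1.14 for Ring1b, 0.12 to 0.28 for H2AK119ub and 0.51 to 1.00 for H3K27me3 (0.75 as reported). Of 90 alternatives for single members' ratios, 86 stayed within 1 SD of the replicates, and the other 4 raised Ring1b at Tbx5 to 5.11 and at Eomes to 5.73, where distal peaks were left out. Many of the 90 could not move, since a member with a single promoter peak per list keeps its value when peaks are selected. The SDs for H3K27me3 were also wide, from 4.28 to 9.83, so these counts say little of robustness. No paired analysis was possible because no antibody was tested against another. Members were compared within each replicate instead. Counting peaks over a span that name another gene or none, chosen after seeing the data, left the median H3K27me3 to Ring1b width (1.53 and 1.44) and the median share of Ring1b under H2AK119ub as they were, and gave a width value of 3.79 and 3.66 at Tbx4 in place of 2.17 and 2.25. Low input counts limit the precision at Tbx21 and Tbx22, and a call on pooled reads was not analysed here.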

Other observations

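Outside the T-box family, 841 protein-coding genes named in all 6 lists were ranked by how close their log2 ratios over the list medians lay to the members' median, as a Euclidean distance over 6 values. The nearest were Six2, a kidney progenitor gene (distance 0.155), Neurod2 (0.163) and Neurog2 (0.166), factors of neuron formation, Pax5, a B cell gene (0.202), and Lhx4, a pituitary gene (0.211). Six2 had Ring1b ratios of 4.63 and 4.88, H2AK119ub ratios of 1.98 and 2.42, and H3K27me3 ratios of 16.0 and 6.32. Likeness of ratios says nothing of shared function, and the ranking was made on the same values as the description of the members.

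Ring1b stood at 3.08 and 2.46 at Tbx1, against 2.19 and 1.60 at the promoter of its neighbour Gp1bb, a platelet receptor gene. The promoter of Gnb1l, on the other side, had 2.00 and 1.53. Gnb1l also had H2AK119ub peaks in its gene body in both replicates and no H3K27me3 peak within 100 kb of Tbx1. Around Eomes the distal 4933432G23Rik peak carried H3K27me3 in both replicates, at 10.3 and 4.95, and Ring1b in replicate 1 at 2.60. Near Tbx3 the promoter of the long non-coding RNA gene Gm16063 carried H3K27me3 at 14.4 and 6.45, with no Ring1b or H2AK119ub peak in the lists.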
